A study of Homo sapiens with 12 samples.

Results

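The mRNAs that sat on polysomes in control cells differed widely between BT549 and SUM159, 2 triple-negative breast cancer (TNBC) cell lines. The comparison used 4 of the 12 libraries of the series, the 2 empty-vector (EV) libraries of BT549 and the 2 EV libraries of SUM159, chosen by their labels and not by any measured value. The study altered TRMT112, a small protein that activates several RNA and protein methyltransferases, with an shRNA in the MDA-MB-231 and SUM159 lines (knockdown, KD) and an expression construct in BT549 (overexpression, OE), and sequenced polysomal RNA of each line beside its own control. A direct comparison of the control lines gives the starting point from which those changes were made. BT549 EV cells carried the pReceiver-M02 empty vector, were selected with G418 and grew in RPMI medium with fetal bovine serum. SUM159 EV cells carried a GIPZ non-silencing shRNA vector, were selected with puromycin and grew in DMEM/F-12 with fetal bovine serum, insulin and hydrocortisone. Both vectors were brought in by lipid transfection. The cell line, its vector, its selection drug and its medium therefore change together and cannot be told apart. The labels do not say that the libraries of a group came from separate cultures, so p-values measure the spread between these libraries, which may be technical.

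Polysomes are mRNAs that carry several ribosomes at once, and they sink faster through a sucrose gradient than free mRNA or single ribosomes. The amount of an mRNA in the polysome fractions depends both on how much of it the cell holds and on how fully it is loaded with ribosomes. Total RNA was not analysed here, so these contributions cannot be told apart. TNBC lacks estrogen receptor, progesterone receptor and ERBB2 amplification, and BT549 and SUM159 are both usually placed among its mesenchymal-like lines.

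The BT549 EV libraries held 24541477 and 24223605 expected counts and the SUM159 EV libraries held 22954226 and 23100660. Values below are normalized counts per gene, scaled by TMM, given for replicate 1 and then replicate 2 of a line, and log2 differences are BT549 EV minus SUM159 EV with the standard error of the fitted model, counting error included (n = 2 libraries per line). The 2 libraries of a line differed little, by a median of 0.0654 (absolute log2) in BT549 and 0.0619 in SUM159. The BT549 EV libraries also stood far from the BT549 OE libraries: 94 genes had at most 3 counts in each EV library and at least 100 normalized counts in each OE library, 68 genes had the reverse, and 7.92% of all genes tested differed by 8-fold or more in mean normalized count + 1. By that measure 14.4% did between BT549 EV and SUM159 EV. The same count was 0 and 9 genes between the SUM159 EV and KD libraries, where 2.25% differed by 8-fold, and 2 and 0 genes between the MDA-MB-231 EV and KD libraries, where 0.284% did. ACTA2, the smooth muscle actin, had 321 and 319 in the BT549 EV libraries and 14939 and 14396 in the BT549 OE libraries. Most group results are therefore followed by those of the same lines compared in their other libraries (BT549 OE minus SUM159 KD), which share no library with the EV comparison.

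Marker genes were compared with the labels first. ESR1 and PGR, the estrogen and progesterone receptors, were not among the genes tested, and ERBB2 had 3299 and 3420.5 in BT549 and 2720.0 and 2666 in SUM159. VIM, the intermediate filament of mesenchymal cells, was high in both lines, at 47330.4 and 47474 in BT549 and 46019 and 46672 in SUM159. Its log2 difference of 0.03 ± 0.03 did not pass edgeR's quasi-likelihood test (adjusted p = 0.279), but it passed at 0.11 with RLE size factors and at -0.18 with library size only, so VIM had no direction. EPCAM, an epithelial adhesion molecule, had 0 and 1.11 in BT549 and 1.01 and 4.02 in SUM159. Of 14 leukocyte markers 3 were high enough to be tested, the summed level of the tested markers was 18.6 to 19.9 in BT549 and 32.3 to 40.2 in SUM159, and PTPRC, CD3E and TYROBP were not tested. Of 10 endothelial and adipocyte markers 6 were tested, with sums of 18.8 to 26.3 in BT549 and 40.4 to 44.2 in SUM159.

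Of 16538 genes tested, 12971 (78.4%) passed an adjusted p-value of 0.05 in edgeR's quasi-likelihood test, 6239 (37.7%) higher in BT549 and 6732 (40.7%) higher in SUM159. With a difference of at least 2-fold added, 7233 genes (43.7%) were called, 3467 (21%) higher in BT549 and 3766 (22.8%) higher in SUM159. These shares are the background against which the gene groups below are read. The median absolute log2 difference over all genes was 0.96, and in the fitted log2 differences, which add no 1 to the counts, 1418 called genes were 8-fold or more higher in BT549 and 1316 in SUM159. Among genes that were all but silent in 1 line, 245 had at least 100 normalized counts in BT549 and at most 3 counts in each SUM159 library, and 197 had the reverse. Only mRNAs detected in a BT549 library are listed, so genes silent in every BT549 library and active in SUM159 are outside the comparison and are not among the 197.

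**Figure D1:**
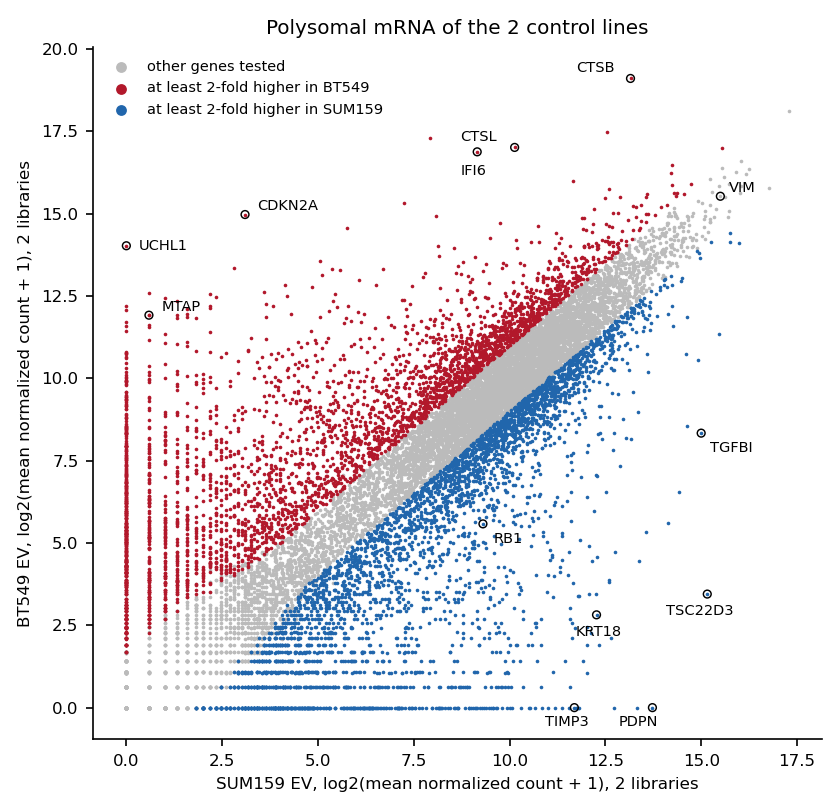
Each point is 1 of the 16538 genes tested, placed at log2(mean normalized count + 1) of the 2 SUM159 EV libraries (x axis) and of the 2 BT549 EV libraries (y axis), red or blue where called at 2-fold. Named genes far from the diagonal differ most: CDKN2A and UCHL1 lie on the BT549 side, and TSC22D3 and PDPN on the SUM159 side, while VIM lies on the diagonal.

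The strongest contrasts joined genes of very different function. UCHL1, a neuronal deubiquitinase (chr4:41256413-41268455 in GRCh38), had 16904 and 16528 in BT549 and 0 and 0 in SUM159, at least 5532-fold higher when SUM159 is set to 3 counts per library. PDPN, the mucin-like membrane protein podoplanin (chr1:13583465-13617957), was its mirror image, with 0 and 0 in BT549 and 13415 and 13703 in SUM159, at least 4105-fold. UCHL1 was lower in the BT549 OE libraries, at 225 and 242. PDPN stayed on the SUM159 side in the other libraries, with 19.9 and 15.8 in BT549 OE and 8509 and 8747 in SUM159 KD. The synaptic pentraxin NPTX2 was also at 0 and 0 in BT549 EV and at 6839 and 6757 in SUM159 EV. Among genes with a few counts in the lower line, the acute-phase protein SAA1 had 1.09 and 5.54 in BT549 and 7014 and 5741 in SUM159, and complement C3 had 4.38 and 1.11 in BT549 and 4241 and 4073 in SUM159. The folds of such genes rest on the few counts of the lower line, so they are left out here, and where a fold is given for a gene with few counts in 1 line its levels stand beside it. SAA1 shares sequence with SAA2, so reads may be divided between them.

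Read per length, the BT549 polysomes were led by cathepsin B (CTSB), galectin-1 (LGALS1), LY6E, beta-actin (ACTB) and IFI6. In TPM, a level corrected for transcript length and depth, these stood at 18006, 10592, 10588, 10501 and 9712 in BT549. In SUM159 the corresponding levels of CTSB, LY6E and IFI6 were 306, 397 and 52.4. The leading mRNAs of SUM159 were LGALS1 (6846), ACTB (6715), the elongation factor EEF1A1 (4576), cyclophilin A PPIA (4571) and S100A6 (4474), of which LGALS1 and ACTB led in both lines.

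Genes that respond to interferon had the highest share of BT549-high members among the 28 gene lists. Interferons signal through transcription factors that bind an element known as the ISRE and switch on proteins that block viral RNA, present antigen and tag proteins with ISG15. Of 45 interferon-stimulated genes, all tested, 41 were at least 2-fold higher in BT549 and 2 in SUM159, against 21% and 22.8% of all genes, with a median log2 difference of 4.17 against -0.06 for all genes. Their summed level was 399772 to 403408 in the BT549 EV libraries and 55041 to 57144 in the SUM159 EV libraries.

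The letters of this element were searched for in the promoters of the same genes. RefSeq promoters (250 bases before to 50 after the gene start, GRCh38.p14) were found for 37 of the 45 genes, and 23 of them (62.2%) held GAAA, any 2 bases and GAAA again, on either strand (TTTC, 2 bases, TTTC when read on the other). Of all 27195 promoters of that length 993 (3.65%) held them, and of the 11856 promoters of genes tested 339 (2.86%). Of the 23 genes with a match, 21 were at least 2-fold higher in BT549, LGALS3BP was higher in SUM159 and IFITM3 passed 2-fold in neither direction. The promoters of 3 genes of the group with wide contrasts and several matches each are shown, in lower case with each match in capitals.
HERC5 (chr4:88456869-88457168, + strand): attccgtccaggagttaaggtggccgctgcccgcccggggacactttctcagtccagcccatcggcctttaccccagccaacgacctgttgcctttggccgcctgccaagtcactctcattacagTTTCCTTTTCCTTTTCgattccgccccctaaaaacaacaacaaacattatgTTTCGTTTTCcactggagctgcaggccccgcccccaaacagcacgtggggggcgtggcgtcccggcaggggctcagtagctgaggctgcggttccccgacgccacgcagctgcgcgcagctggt
IFIT1 (chr10:89392373-89392672, + strand): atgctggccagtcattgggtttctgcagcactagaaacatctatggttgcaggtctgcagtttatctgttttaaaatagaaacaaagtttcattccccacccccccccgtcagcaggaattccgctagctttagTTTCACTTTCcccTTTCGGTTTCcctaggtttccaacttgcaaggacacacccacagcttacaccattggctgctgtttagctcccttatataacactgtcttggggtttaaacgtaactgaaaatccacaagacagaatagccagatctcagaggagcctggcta
IFI6 (chr1:27672143-27672442, - strand): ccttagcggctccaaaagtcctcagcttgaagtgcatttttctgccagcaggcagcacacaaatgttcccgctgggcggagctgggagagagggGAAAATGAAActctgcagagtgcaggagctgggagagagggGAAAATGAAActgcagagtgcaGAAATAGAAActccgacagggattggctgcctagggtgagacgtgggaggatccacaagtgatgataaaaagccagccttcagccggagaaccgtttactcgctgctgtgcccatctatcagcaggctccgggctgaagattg
HERC5 and IFI6 held 3 matches each and IFIT1 held 2, and the leftmost began 125, 156 and 116 bases before the gene start, in that order. In HERC5 the first 2 overlap, which makes the longest run of capitals. A match describes the letters only and does not show that a factor was bound.

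The level of these genes was high in both BT549 EV libraries and low in both SUM159 EV libraries. IFI6, a mitochondrial and endoplasmic reticulum protein that limits viral replication, had 122946 and 118626 in BT549 and 546 and 592 in SUM159 (7.73 ± 0.05, adjusted p = 1.65e-31, edgeR's quasi-likelihood test). ISG15, the ubiquitin-like modifier, had 31573 and 31498 in BT549 and 256 and 278 in SUM159 (6.88 ± 0.07). IFIT1, which binds viral RNA ends, had 5775 and 5838 in BT549 and 19.2 and 15.1 in SUM159 (8.39 ± 0.25). HERC5, the ligase that attaches ISG15, had 1066 and 1107 in BT549 and 2.02 and 2.01 in SUM159. The antiviral enzymes OAS1 (6095 and 5904 in BT549 and 3.03 and 4.02 in SUM159, 10.68 ± 0.55) and RSAD2 (5584 and 5806 against 7.06 and 1.01) and the nucleotide kinase CMPK2 (4142 and 4431 against 0 and 0, at least 1419-fold) were all but silent in SUM159.

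The exceptions were IFITM2, with 8.76 and 11.1 in BT549 and 4209.7 and 4467 in SUM159, and the secreted glycoprotein LGALS3BP, with 1416 and 1386 in BT549 and 5922 and 5826 in SUM159. The ubiquitin ligase TRIM22 had 113 and 77.5 in BT549 and 176 and 147 in SUM159, a difference that passed the test at -0.76 but not without BT549 EV replicate 2 (-0.51) or without SUM159 EV replicate 1 (-0.62). IFITM1, IFITM2 and IFITM3 are near-identical neighbours, so their counts may be divided between them: IFITM1 had 44961 and 46559 in BT549 and 5581 and 5833 in SUM159, and IFITM3 had 20919 and 20754 in BT549 and 15905 and 17035 in SUM159.

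In the other libraries of the same lines this lean to BT549 was not seen. There 11 of the 45 genes were at least 2-fold higher in BT549 OE than in SUM159 KD, 19 were higher in SUM159 KD, and the median log2 difference was -0.48 (21.1% and 20.7% of all genes, 41.8% in either direction). IFI6 had 921 and 835 in BT549 OE and 1302 and 1164 in SUM159 KD, and the EV difference exceeded the OE and KD difference by 8.21 ± 0.08 (adjusted p = 5.58e-28, edgeR interaction test). The MDA-MB-231 EV libraries had 461 and 424. MX2 and XAF1 kept a BT549 side in both, with 1342 and 1204 (MX2) and 1144 and 1157 (XAF1) in BT549 OE and 0 counts of either in each SUM159 KD library. The BT549 line and the particular cells behind its EV libraries cannot be told apart here.

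MHC class I genes, which display peptides to T cells, followed the same libraries less steeply. Of 17 genes of class I and peptide loading, 8 were at least 2-fold higher in BT549 and 1 in SUM159 (21% and 22.8% of all genes), with a median of 0.96. HLA-C had 65674 and 63850.5 in BT549 and 3009 and 3402 in SUM159 (4.34 ± 0.04) and HLA-B had 38282 and 39223 in BT549 and 9457 and 9779 in SUM159 (2.01 ± 0.03). In the BT549 OE libraries HLA-C had 312 and 312 and HLA-B 79.7 and 71.3, and the median of the list over the OE and KD libraries was -1.16. HLA genes share sequence and reads may be divided between them. The peptide transporter TAP1 was 2.49 ± 0.04 and the chaperone calreticulin (CALR) 2.23 ± 0.03 in EV. CALR kept its difference in the OE and KD libraries (2.25), where TAP1 did not (-1.40).

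**Figure D2:**
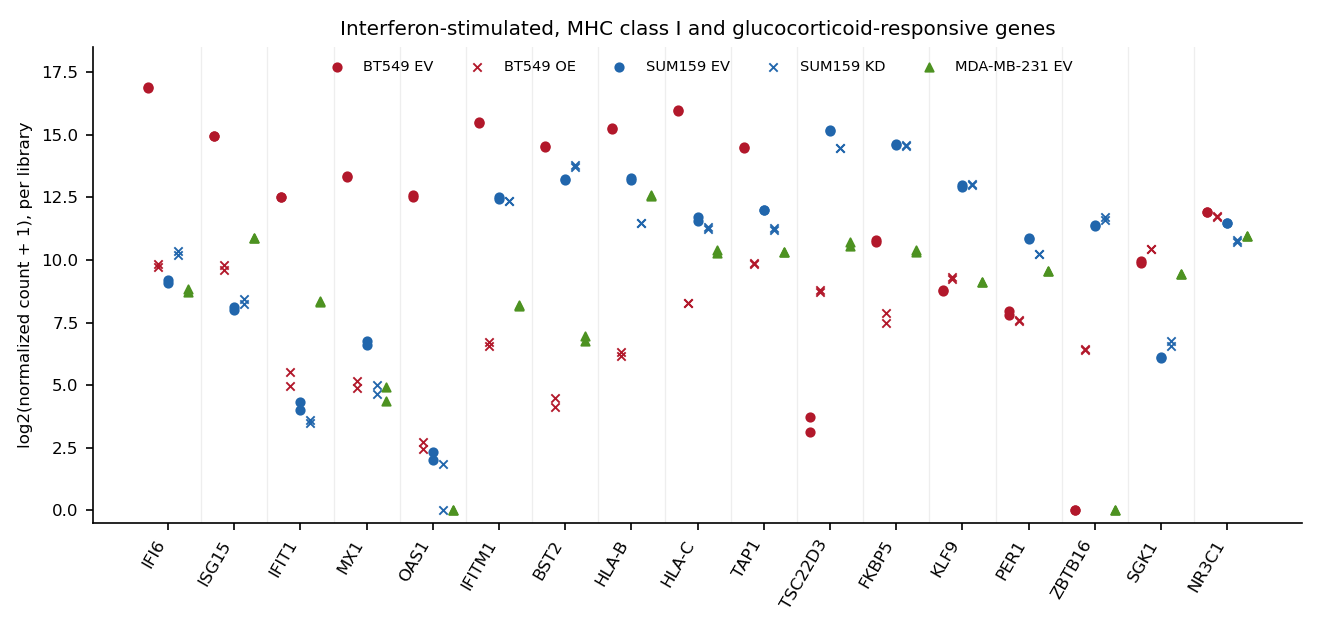
Points are single libraries, 2 for each group, at log2(normalized count + 1) (y axis) for interferon-stimulated, MHC class I and glucocorticoid-responsive genes (x axis), colored and shaped by group (BT549 EV and OE, SUM159 EV and KD, MDA-MB-231 EV). The interferon and MHC genes are highest in BT549 EV, whereas TSC22D3, FKBP5, KLF9, PER1 and ZBTB16 are highest in the SUM159 groups.

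A block on the short arm of chromosome 9 separated the lines in EV and in their other libraries. It holds CDKN2A and CDKN2B, whose proteins p16 and p15 block the cyclin D kinases CDK4 and CDK6, and MTAP, an enzyme of methionine salvage. Ordered along the genome, 15 neighbouring genes from PLIN2 to CDKN2B (chr9:19108375-22128103) were all at least 2-fold higher in BT549, with a median log2 difference of 7.93. This run was picked as the highest of all runs of 15 neighbouring genes and is given as a description, with no test. The median over the OE and KD libraries was 7.53.

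CDKN2A (ENSG00000147889.18, chr9:21967752-21995301) had 32398 and 32125 in BT549 and 8.07 and 7.04 in SUM159, a log2 difference of 12.04 ± 0.37 (adjusted p = 2.14e-29, edgeR's quasi-likelihood test). BT549 OE had 27171 and 25844, SUM159 KD 18.1 and 11.2 and MDA-MB-231 EV 0 and 0. Of the BT549 EV counts of CDKN2A, 62.6% were assigned to the transcript that encodes p16 (ENST00000304494.10) and 28.9% to the one that encodes p14ARF (ENST00000579755.2). CDKN2B had 4477 and 4573 in BT549 and 5.05 and 2.01 in SUM159. MTAP (chr9:21802636-21937651) had 3809 and 3942 in BT549 and 1.01 and 0 in SUM159, and MLLT3, a chromatin reader, had 425 and 425 against 1.01 and 0. Unlike the others MLLT3 was low in BT549 OE, at 5.54 and 12.5. The lipid droplet protein PLIN2 had 4689.6 and 4740.4 in BT549 and 4.04 and 3.02 in SUM159 and the focal adhesion protein FOCAD 187 and 162 in BT549 and 2.02 and 4.02 in SUM159. Both SUM159 libraries lay far below both BT549 libraries for each of these genes.

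The difference was not uniform along the chromosome. KLHL9, between FOCAD and MTAP, kept 21.2 and 32.2 in SUM159 against 511 and 553 in BT549 (4.31 ± 0.23). RPS6, a ribosomal protein inside the block, differed by 1.16 ± 0.03. Beyond its ends RRAGA differed by 3.42, DMRTA1 had 17.5 and 9.97 in BT549 and 0 and 0 in SUM159, ELAVL2 differed by 6.17, TUSC1 by 2.48 and CAAP1 by 0.82. DNA copy number was not measured, and its part in these values was not tested.

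**Figure D3:**
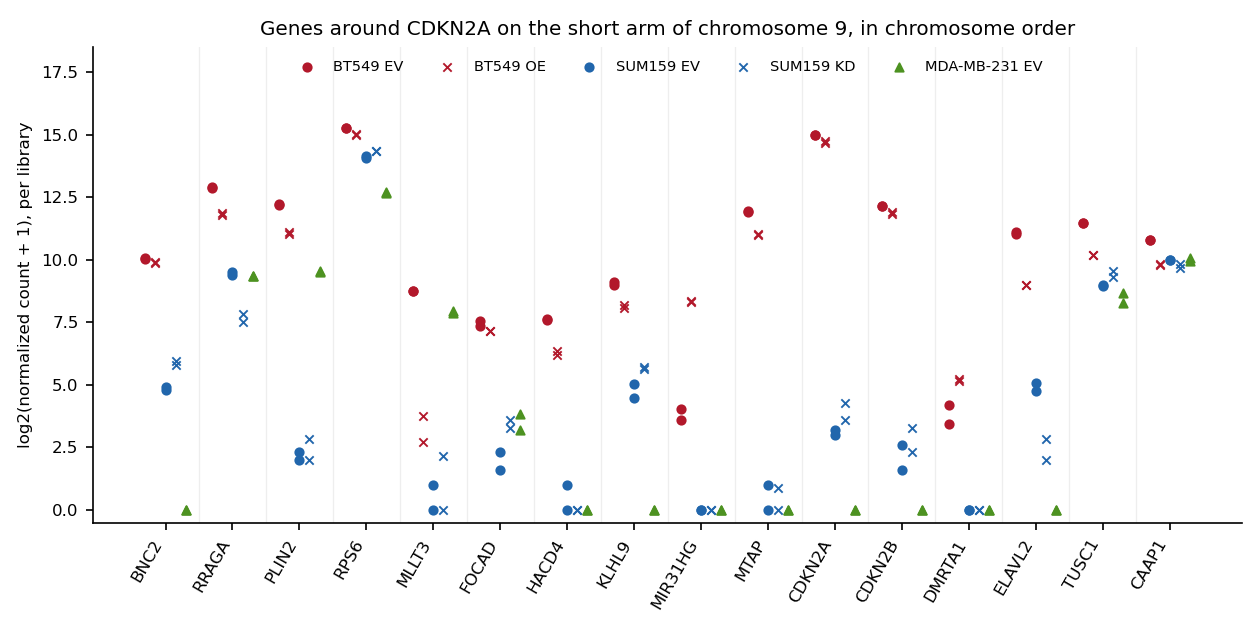
Points are single libraries, 2 for each group, at log2(normalized count + 1) (y axis) for genes around CDKN2A in chromosome order (x axis), colored and shaped by group (BT549 EV and OE, SUM159 EV and KD, MDA-MB-231 EV). PLIN2, FOCAD, MTAP, CDKN2A and CDKN2B are low in both SUM159 groups and high in both BT549 groups, MLLT3 is high in BT549 EV and low in BT549 OE, and RPS6 and CAAP1 are high in every group.

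RB1, the retinoblastoma protein gene downstream of p16 and the cyclin D kinases, went the opposite way. It (chr13:48303744-48599436) had 32.8 and 60.9 in BT549 and 601 and 662 in SUM159 (-3.75 ± 0.24, adjusted p = 5.15e-15), and BT549 OE had 106 and 169.8 against 506 and 507 in SUM159 KD. The transcripts to which counts were assigned differed as well. A short 633-base RB1 transcript took 73.8% of the BT549 EV counts of the gene and 0.124% of those of SUM159. The full-length 4768-base transcript took 15.8% and 93.4%. The BT549 shares rest on 30 and 55 counts before scaling, so they are uncertain. ITM2B, the neighbour of RB1, was not low in BT549, with 8655 and 8755 in BT549 and 2538 and 2409.7 in SUM159. Of 18 genes of the RB axis, 5 were at least 2-fold higher in BT549 EV and 4 in SUM159 EV (21% and 22.8% of all genes). In either direction 50% were called, near the 43.7% of all genes. The OE and KD libraries gave the same counts, and the medians were 0.59 in EV and 0.04 there. The inhibitors CDKN2C (19866 and 19671 in BT549 and 2628 and 2602 in SUM159) and CDKN1B (1.22) and cyclin E2, CCNE2 (3.50), were higher in BT549. Cyclin D1, CCND1, was higher in SUM159, with 2031 and 2140.4 in BT549 and 8135 and 8317 in SUM159 (-1.98 ± 0.04), as was the RB relative RBL2 (-1.08).

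Genes of the PI3K and mTOR pathway, which passes growth factor signals to cell growth, differed at a few members. Of 13 genes tested of this pathway 4 were at least 2-fold higher in SUM159 and 0 in BT549 (22.8% and 21% of all genes), with a median of -0.29 in the EV libraries and -1.17 in the OE and KD libraries. With no minimum of fold, 6 passed edgeR's quasi-likelihood test higher in SUM159 and 3 in BT549. The brakes INPP4B (-2.30 ± 0.14), TSC2 (-1.70 ± 0.10) and PIK3IP1 (-3.17 ± 0.26) were among the 4. The other was the kinase AKT1, which is not a brake. Before scaling it had 4896 and 4638 counts in BT549 and 11064 and 11178 in SUM159. TSC1, also a brake, was not among the 4, with 640 and 679 counts before scaling in BT549 and 514 and 504 in SUM159. In either direction 30.8% of the 13 were called at 2-fold, below the 43.7% of all genes.

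Glucocorticoid-responsive genes leaned to SUM159. Glucocorticoids such as hydrocortisone bind the receptor NR3C1, which then drives anti-inflammatory and metabolic genes. Of 19 such genes 13 were at least 2-fold higher in SUM159 and 2 in BT549 (22.8% and 21% of all genes), with a median log2 difference of -1.20 in the EV libraries and -1.20 in the OE and KD libraries.

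TSC22D3, known as GILZ, a mediator of steroid action on inflammation (chrX:107713221-107777342), had 7.66 and 12.2 in BT549 and 36803 and 36336 in SUM159 (-11.83 ± 0.34, adjusted p = 2.96e-31, edgeR's quasi-likelihood test). FKBP5, a co-chaperone of the receptor, had 1659 and 1782 in BT549 and 25180.2 and 24929.5 in SUM159 (-3.86 ± 0.04). The transcription factor ZBTB16 was at 0 and 0 in BT549 and at 2651 and 2662 in SUM159, at least 804-fold. No library of BT549 reached the SUM159 range of any of these 3 genes. The transcription factor KLF9 (-4.19 ± 0.06), the clock gene PER1 (-2.97 ± 0.09) and the phosphatase DUSP1 (-2.87 ± 0.06) were on the same side. The receptor itself differed little, with NR3C1 at 3906 and 3888 in BT549 and 2843 and 2823 in SUM159 (0.46 ± 0.04).

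The 2 genes on the other side were SGK1, a kinase of salt transport, with 1005 and 949 in BT549 and 67.6 and 68.4 in SUM159 (3.84 ± 0.14), and the lipase inhibitor ANGPTL4 (3.59 ± 0.23). The SUM159 medium held hydrocortisone and the BT549 and MDA-MB-231 media did not, per the labels. MDA-MB-231 EV had 1698 and 1516 for TSC22D3, 1267 and 1363 for FKBP5 and 0 and 0 for ZBTB16. The hormone and the line cannot be told apart in the SUM159 values.

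Proteases leaned to BT549. Cathepsins degrade proteins in lysosomes and, when secreted, the matrix, and serpins and TIMPs restrain proteases outside the cell. Of 20 proteases and inhibitors tested 14 were at least 2-fold higher in BT549 and 4 in SUM159 (21% and 22.8% of all genes), with a median log2 difference of 2.15, or 1.93 with the genes at the floor set to 3 counts. The median in the OE and KD libraries was 2.17. CTSB had 563397 and 568862 in BT549 and 9165 and 9079.9 in SUM159 (5.96 ± 0.03) and CTSL, cathepsin L, had 133407 and 131646 in BT549 and 1111 and 1131 in SUM159 (6.89 ± 0.04). The summed level of the list was 862396 to 863881 in BT549 EV, most of it CTSB. In SUM159 EV it was 68170 to 68723, and there CTSD, CTSZ and TIMP2 each stood above CTSB. CTSB stayed on the BT549 side in the other libraries, with 302508 and 293996 in BT549 OE and 12031 and 11896 in SUM159 KD.

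Membrane and secreted proteases followed. MMP14, which activates other metalloproteases at the cell surface, had 13575 and 13462 in BT549 and 296 and 272 in SUM159 (5.57 ± 0.07), and the urokinase receptor PLAUR differed by 4.02 ± 0.07. MMP1, the interstitial collagenase, had 498 and 489 in BT549 and 3.03 and 0 in SUM159. The inhibitors split between the lines. SERPINE2 had 41066 and 41885 in BT549 and 159 and 141 in SUM159 (8.11 ± 0.09), whereas TIMP3 was at 0 and 0 in BT549 EV and 3239.8 and 3367 in SUM159 EV. BT549 OE had 1777 and 1654 of TIMP3. The tissue plasminogen activator PLAT (4.38 and 1.11 in BT549 and 1164 and 1192 in SUM159) and the gelatinase MMP2 (-2.90 ± 0.07) were higher in SUM159.

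Mesenchymal and epithelial genes differed by member in the EV libraries. Of 23 mesenchymal genes 9 were at least 2-fold higher in BT549 and 8 in SUM159 (21% and 22.8% of all genes), with a median of -0.09. In the OE and KD libraries 11 were higher in BT549 and 5 in SUM159, with a median of 0.98. Of 26 epithelial genes tested 10 were higher in BT549 and 9 in SUM159, with a median of 0.41, or 0.19 with the genes at the floor set to 3 counts. In the OE and KD libraries 7 and 10 were, with a median of -0.57. The mesenchymal cadherin CDH11 had 5529 and 5591 in BT549 and 2.02 and 0 in SUM159. The transcription factors PRRX1 (6.67 ± 0.20) and TWIST1 (3.34 ± 0.07) and the surface protein THY1 (4.09 ± 0.05) stood on the same side. SUM159 had more TWIST2 (-2.06 ± 0.08), SNAI1 (9.85 and 13.3 in BT549 and 121 and 154 in SUM159, -3.56 ± 0.35) and S100A4 (-4.88 ± 0.11), and FOXC2 was at 911 and 869 there and at 0 and 0 in BT549. ZEB2 did not pass the test (-0.09 ± 0.07, adjusted p = 0.227), though it did with library size only (-0.30).

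Among simple keratins, KRT18, KRT8 and KRT7 were higher in SUM159. KRT18 had 6.57 and 5.54 in BT549 and 4731 and 5134 in SUM159 (-9.64 ± 0.44), its partner KRT8 had 10.9 and 8.86 in BT549 and 4910.1 and 4944 in SUM159 (-8.94 ± 0.34), and KRT7 had 1499 and 1486 in BT549 and 30344 and 31001 in SUM159 (-4.36 ± 0.04). KRT19 went the other way at a low level, with 13.1 and 18.8 in BT549 and 0 and 0 in SUM159. TP63, a factor of basal epithelium, had 33.9 and 38.8 in BT549 and 1814 and 1903 in SUM159 (-5.67 ± 0.19). BT549 instead held P-cadherin CDH3, with 3987 and 3794 against 1.01 and 2.01, and low E-cadherin CDH1, with 63.5 and 50.9 against 0 and 0. SOX9, a factor of progenitor cells, had 1539 and 1684 in BT549 and 9.08 and 12.1 in SUM159 (7.23 ± 0.32), and GATA3 (3.29 ± 0.12) and FOXC1 (2.68 ± 0.07) were also higher in BT549.

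Collagens and other matrix proteins differed by member. Of 19 collagens tested 6 were at least 2-fold higher in BT549 and 9 in SUM159 (21% and 22.8% of all genes). COL1A2 had 4966 and 4885 in BT549 and 8.07 and 15.1 in SUM159 (8.72 ± 0.30), whereas COL1A1, the other chain of type I collagen, had 2016 and 2023 in BT549 and 7420.1 and 7476 in SUM159 (-1.88 ± 0.04). COL1A1 was far higher in the BT549 OE libraries, at 57265 and 55212, and the list's median turned from -0.89 in the EV libraries to 0.86 in the OE and KD libraries. COL15A1, a basement membrane collagen, had 1821 and 1835 in BT549 and 14.1 and 2.01 in SUM159, and COL7A1, the anchoring fibril collagen, had 1.09 and 5.54 in BT549 and 705 and 692 in SUM159. Of 28 matrix glycoproteins 11 were higher in BT549 and 9 in SUM159, with a median of -0.17. The OE and KD libraries had 14 and 11, with a median of 1.83. FBLN2, a fibulin of elastic fibers, had 10724 and 10364 in BT549 and 9.08 and 3.02 in SUM159, its relative FBLN1 had 41.6 and 36.5 in BT549 and 12185 and 11872 in SUM159 (-8.26 ± 0.17), and the TGF-beta-induced TGFBI had 346 and 299 in BT549 and 33059 and 32451 in SUM159 (-6.67 ± 0.07). Of 16 integrins 3 were higher in BT549 and 7 in SUM159, with a median of -0.46, and 6 and 9 in the OE and KD libraries, with a median of -1.71.

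Receptors and ligands of growth signaling differed member by member. FGFR2, a fibroblast growth factor receptor, had 1726 and 1810.4 in BT549 and 0 and 0 in SUM159, at least 585-fold, and FGFR1 had 8985 and 8786 in BT549 and 1872 and 1875 in SUM159 (2.25 ± 0.04). The collagen receptor DDR2 was 4.57 ± 0.10 and the PDGF receptor PDGFRB -5.05 ± 0.42, with 5.47 and 8.86 in BT549 and 232 and 249 in SUM159. MET had 2734 and 2677 in BT549 and 2799.7 and 2813 in SUM159 and did not pass the test (-0.05 ± 0.05, adjusted p = 0.286), though it did with library size only (-0.27), and EGFR differed by -0.43 ± 0.05. Of 23 receptor tyrosine kinases 7 were at least 2-fold higher in BT549 and 4 in SUM159 (21% and 22.8% of all genes). In either direction 47.8% were called, near the 43.7% of all genes. Their medians were 0.51 in EV and 0.23 in the OE and KD libraries. Of 23 ligands and IGF-binding proteins 10 were higher in BT549 and 8 in SUM159, with medians of 0.62 and -0.22. Midkine, MDK, had 24539.5 and 23594 in BT549 and 53.5 and 52.3 in SUM159 (8.83 ± 0.14), IGFBP3 differed by 6.84 ± 0.19, and IGFBP4 had 2565 and 2663 in BT549 and 45071 and 45224 in SUM159 (-4.11 ± 0.04). The EGFR ligand AREG (5.47 and 5.54 in BT549 and 638 and 647 in SUM159, -6.83 ± 0.51) and PDGFA (5.47 and 13.3 against 3443 and 3650.3) were higher in SUM159, and NRG1, a ligand of ERBB3, in BT549 (3.44 ± 0.09).

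The TGF-beta and BMP pathway leaned to BT549. Its ligands signal through SMAD proteins, and ID genes are direct BMP targets. Of 26 members tested 15 were at least 2-fold higher in BT549 and 2 in SUM159 (21% and 22.8% of all genes), with a median of 1.41 in the EV libraries and 1.67 in the OE and KD libraries. ID4 had 5916 and 6445 in BT549 and 1.01 and 0 in SUM159. The other ID genes were higher in BT549 by 1.35 (ID1), 4.33 (ID2) and 1.72 (ID3) on the log2 scale. The ligand BMP4 (4.97 ± 0.18), the latency protein LTBP1 (483 and 444 in BT549 and 3.03 and 4.02 in SUM159, 6.99 ± 0.56) and the inhibitory SMAD7 (2.71 ± 0.09) stood on the same side. TGFB1 itself was higher in SUM159 (-1.69 ± 0.04), as was the activin antagonist FSTL3 (-1.91 ± 0.04).

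Chemokines were split by member. Of 30 cytokines and NF-kB targets 9 were at least 2-fold higher in BT549 and 13 in SUM159 (21% and 22.8% of all genes), with a median of -0.58. The counts were 8 and 6 in the OE and KD libraries, with a median of 0.22. CXCL1 had 4679.7 and 4687 in BT549 and 8.07 and 18.1 in SUM159 and CCL5 had 8334 and 8022 in BT549 and 68.6 and 63.3 in SUM159 (6.95 ± 0.14). IL32 had 85.4 and 99.7 in BT549 and 21859 and 21798 in SUM159 (-7.88 ± 0.12), CXCL8 differed by -4.12 ± 0.24, and NFKB1, a subunit of NF-kB, by -2.10 ± 0.06. CXCL10, a chemokine induced by interferon, had 332 and 296 in BT549 and 2.02 and 5.03 in SUM159.

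Genes of amino acid supply were higher in SUM159 EV. ATF4 is a transcription factor that is translated when amino acids are short and that drives enzymes of amino acid synthesis, transporters and tRNA synthetases. Of 20 genes listed for amino acid synthesis or as ATF4 targets, 12 were at least 2-fold higher in SUM159 and 1 in BT549. The shares of all genes were 22.8% and 21%, and the median of the list was -1.28. Of 20 cytosolic tRNA synthetases 9 were higher in SUM159 and 1 in BT549, with a median of -0.84. ATF4 had 4761 and 4572 in BT549 and 18807 and 19693 in SUM159 (-2.04 ± 0.04).

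The composite element bound by ATF4 and C/EBP factors can be searched for by its letters TGATGNAA (TTNCATCA on the other strand). Promoters were found for 16 of the 20 synthetases, and 6 (37.5%) held it. Of 16 promoters of the amino acid list 3 (18.8%) held it, and of all 27195 promoters 999 (3.67%), or 201 of the 11856 of genes tested (1.70%). Of the 9 members with a match 7 were at least 2-fold higher in SUM159 (ASNS, CARS1, TARS1, AARS1, CHAC1, MARS1 and IARS1) and NARS1 and SLC3A2 were not. The promoters of ASNS, an asparagine-making enzyme, and CARS1, the cysteinyl-tRNA synthetase, are shown as 1 example of each list, with the match in capitals.
ASNS (chr7:97872359-97872658, - strand): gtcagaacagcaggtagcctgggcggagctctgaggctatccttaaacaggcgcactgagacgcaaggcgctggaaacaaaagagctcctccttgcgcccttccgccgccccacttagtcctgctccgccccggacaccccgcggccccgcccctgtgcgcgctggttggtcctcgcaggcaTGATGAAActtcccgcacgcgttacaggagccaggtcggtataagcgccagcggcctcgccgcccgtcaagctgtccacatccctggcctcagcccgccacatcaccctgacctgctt
CARS1 (chr11:3057374-3057673, - strand): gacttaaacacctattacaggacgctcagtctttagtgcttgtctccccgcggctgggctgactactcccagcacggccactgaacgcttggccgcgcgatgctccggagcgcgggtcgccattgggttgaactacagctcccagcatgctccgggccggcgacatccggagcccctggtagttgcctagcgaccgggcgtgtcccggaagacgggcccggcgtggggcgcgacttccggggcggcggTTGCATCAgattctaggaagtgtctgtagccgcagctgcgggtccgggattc
The leftmost base of the match lay 68 bases before the gene start in ASNS and 2 before it in CARS1. The amino acid list was drawn up to hold ATF4 targets, so its share of matches is tied to that choice. Here too a match describes the letters only and does not show that a factor was bound.

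Both genes had several times more polysomal mRNA in SUM159. ASNS had 405 and 378 in BT549 and 3530.4 and 3681 in SUM159 (-3.20 ± 0.07, adjusted p = 2.8e-22, edgeR's quasi-likelihood test), and CARS1 had 607 and 609 in BT549 and 3039 and 2999.8 in SUM159 (-2.31 ± 0.06). The cystine transporter SLC7A11 had 325 and 310.0 in BT549 and 5122 and 4934 in SUM159 (-3.98 ± 0.07). PHGDH, which opens serine synthesis, differed by -2.15 ± 0.06, SHMT2 by -2.24 ± 0.04 and MTHFD2 by -1.95 ± 0.04. The 1 synthetase higher in BT549 was WARS1, which interferon also induces, with 9652 and 9616 in BT549 and 4771 and 4851 in SUM159 (1.00 ± 0.04). It lay at the 2-fold threshold, and without SUM159 EV replicate 1 no synthetase passed it in BT549. The 1 such gene of the amino acid list was the lipoprotein receptor VLDLR (4.19 ± 0.18).

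In the OE and KD libraries the synthetases turned: none was 2-fold higher in SUM159 KD, 6 were higher in BT549 OE, and the median was 0.63. The amino acid list had a median of -0.12 there. ASNS had 282 and 237 in BT549 OE and 530.3 and 552 in SUM159 KD. CARS1 had 545 and 487 in BT549 OE and 842 and 802 in SUM159 KD. In that comparison the line cannot be told apart from the TRMT112 shRNA of the SUM159 cells and the TRMT112 construct of the BT549 cells.

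Of 21 glycolysis genes 9 were at least 2-fold higher in SUM159 and 2 in BT549 (22.8% and 21% of all genes), with a median of -0.72. In the OE and KD libraries 4 were higher in SUM159 and 0 in BT549, with a median of -0.26. The lactate exporter SLC16A3 had 120.4 and 142 in BT549 and 5001 and 4959 in SUM159 (-5.25 ± 0.11), the glucose transporter SLC2A1 differed by -3.48 ± 0.10, and GAPDH by -0.18 ± 0.03. Another transporter, SLC2A3, had 16.4 and 13.3 in BT549 and 347 and 339.8 in SUM159 (-4.52 ± 0.39). HK2, a hexokinase, was higher in BT549 (1.34 ± 0.06). Cytosolic ribosomal proteins had the smallest share of 2-fold calls of the 28 lists: of 78, 3 were at least 2-fold higher in BT549 and 6 in SUM159, and their median was -0.20, or -0.05 in the OE and KD libraries. With no minimum of fold, 50 of the 78 passed edgeR's quasi-likelihood test higher in SUM159 and 19 in BT549 (40.7% and 37.7% of all genes). In the OE and KD libraries 36 passed in each direction. Their summed level was 1137042 to 1149592 in BT549 and 1121701 to 1148342 in SUM159, ranges that overlap. The sums weigh abundant members most: before scaling RPL8 had 121100 and 116837 counts in BT549 and 46750 and 48398 in SUM159.

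TRMT112, the gene the study altered, was itself different between the controls. It had 3076 and 3087 in BT549 and 6332 and 6566 in SUM159 (-1.07 ± 0.04, adjusted p = 1.31e-17, edgeR's quasi-likelihood test). The BT549 OE libraries had 4286 and 4319 and the SUM159 KD libraries 3909 and 3699, so the order of the lines was the reverse there, in the direction their labels give. TRMT112 is a required partner of methyltransferases for rRNA, tRNA and protein. Of TRMT112 and 7 partners 4 were at least 2-fold higher in SUM159 and 0 in BT549 (22.8% and 21% of all genes), with a median of -1.00. With RLE size factors 2 were 2-fold higher in SUM159. Of the 8, 0 differed by 2-fold in the OE and KD libraries, 6 passed edgeR's quasi-likelihood test higher in BT549 and 1 in SUM159, and the median was 0.29. METTL5, which methylates 18S rRNA, had 687 and 643 in BT549 and 2331 and 2239 in SUM159 (-1.78 ± 0.06), and ALKBH8, which modifies tRNA wobble bases, had 397 and 386 in BT549 and 1798 and 1915 in SUM159 (-2.24 ± 0.08). TRMT11, for guanosines of tRNA, differed by -1.07 ± 0.09. BUD23, the other 18S rRNA methyltransferase, was slightly higher in BT549 (0.29 ± 0.04), and N6AMT1 did not pass the test (-0.00 ± 0.12, adjusted p = 0.991).

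HOX genes, which encode positional identity, showed a line-specific pattern of clusters. Of 32 tested 16 were at least 2-fold higher in BT549 and 9 in SUM159 (21% and 22.8% of all genes). Their medians were 1.48 in EV and 1.73 in the OE and KD libraries. HOXB genes were found in BT549: HOXB3 had 727 and 807 against 0 and 0 in SUM159, HOXB4 717 and 724 against 0 and 0, and HOXB6 1824 and 1800.5 in BT549 and 5.05 and 0 in SUM159. A run of 15 neighbouring genes that ends at HOXB8 (chr17:47941506-48633572) had a median of 7.47 in the EV libraries and 7.30 in the OE and KD libraries. The HOXA end was the opposite in EV, with HOXA3 at 0 and 0 in BT549 and 140.3 and 124 in SUM159, and a run of 15 genes that ends at HOXA6 (chr7:25134692-27155928) had a median of -7.11. Both runs were picked by their medians and carry no test. The HOXA run had a median of 0.50 in the OE and KD libraries, where BT549 OE had 226 and 177 for HOXA3 and 215 and 216 for HOXA5. HOXB thus separated the lines in both comparisons and HOXA in the EV libraries.

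Cancer-testis antigens, genes of the germ line that many tumors switch on, were found mostly in SUM159. Of 25 listed 9 were tested, and 7 of these were at least 2-fold higher in SUM159 and 1 in BT549 (22.8% and 21% of all genes). In the OE and KD libraries 8 and 1 were. XAGE1A had 2.19 and 3.32 in BT549 and 4999 and 5266 in SUM159, and MAGEA3 had 2.19 and 0 in BT549 and 698 and 652 in SUM159. PRAME was the BT549 member, with 196 and 227 against 3.03 and 0. XAGE and MAGEA genes have near-identical copies, so reads may be divided between them. The other 16 antigens were not tested, and genes silent in BT549 are not listed.

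Several smaller groups completed the contrast. Of 8 genes often used as markers of stem-like cells 6 were at least 2-fold higher in BT549 and 1 in SUM159 (21% and 22.8% of all genes). Their medians were 2.49 in EV and 1.38 in the OE and KD libraries. CD24, one of the 6, is used in breast cells by its low level, so the count does not describe a stem-like state. The surface glycoprotein CD24 had 3029 and 2965 in BT549 and 134 and 116 in SUM159 (4.58 ± 0.10), the aldehyde dehydrogenase ALDH1A3 differed by 4.07 ± 0.10 and the transcription factor KLF4 by 3.35 ± 0.06, whereas MYC had 3096 and 3123 in BT549 and 19650.5 and 19590.4 in SUM159 (-2.66 ± 0.04). Of 22 contractile and actin genes 2 were higher in BT549 and 8 in SUM159, and in the OE and KD libraries 8 and 2 were. The actin-binding protein TAGLN had 402 and 396 in BT549 and 849.8 and 854 in SUM159 in EV and 47225 and 46324 in BT549 OE, and its line difference changed from -1.09 to 4.54. MYL9, a myosin light chain, went from -1.93 to 1.79. Of 4 metallothioneins tested 2 were higher in each line, and these genes share sequence, so their reads may be divided.

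**Figure D4:**
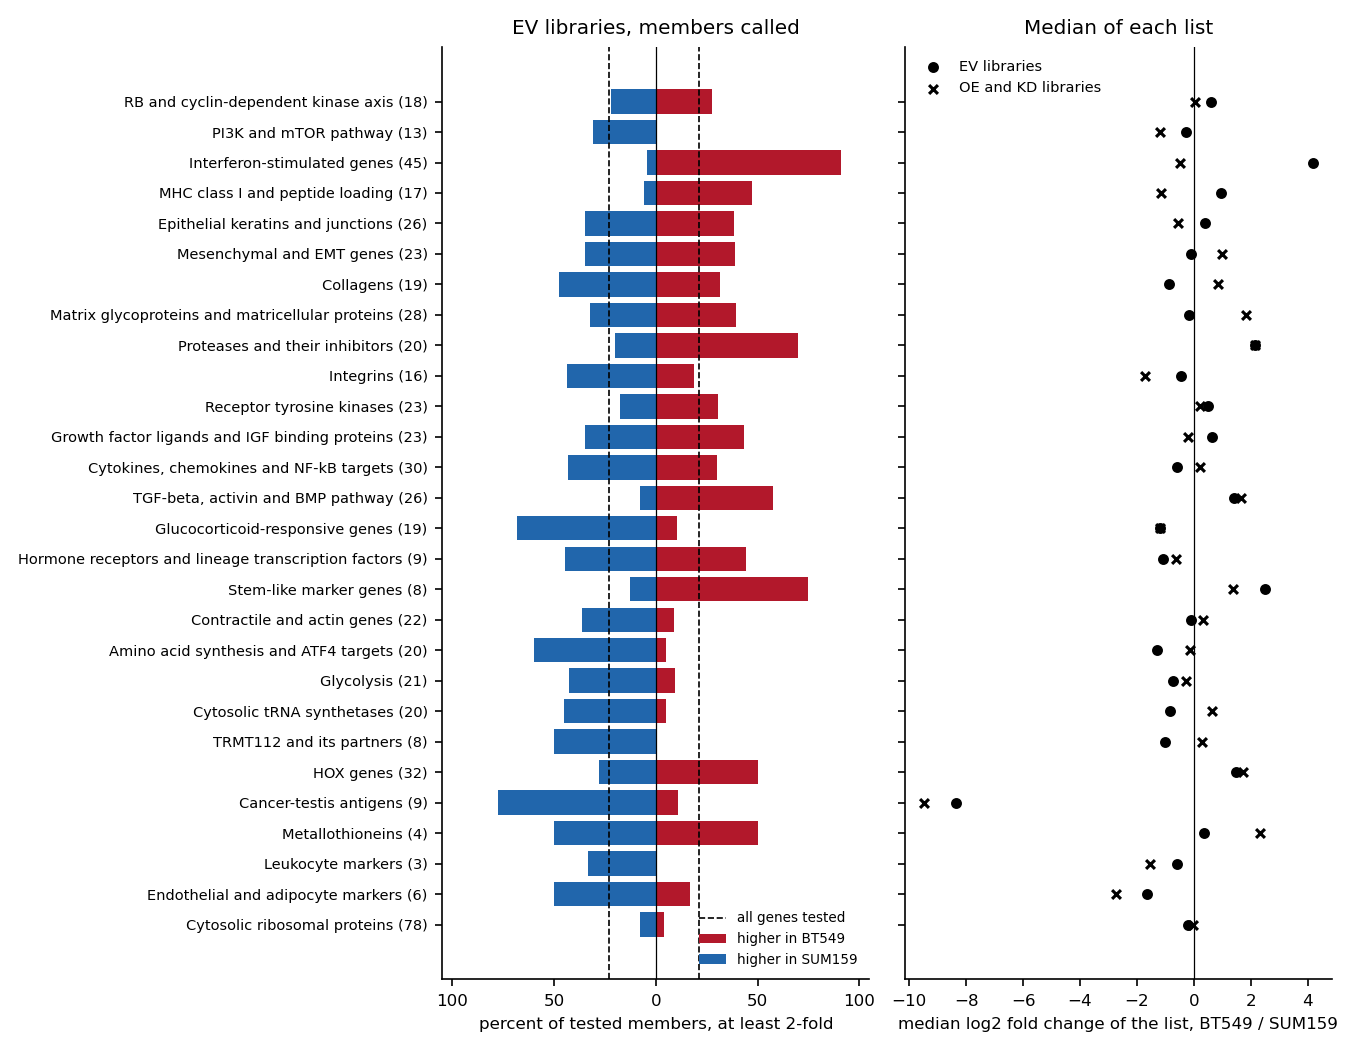
For each of the 28 gene lists (y axis, number tested in brackets) the bars give the percent of tested members at least 2-fold higher in BT549 EV (right) and in SUM159 EV (left), with dashed lines at the 21% and 22.8% of all genes, and the points give the median log2 difference in the EV libraries and in the OE and KD libraries. Interferon-stimulated genes, proteases and the TGF-beta and BMP pathway lean to BT549, and glucocorticoid-responsive, amino acid and cancer-testis genes to SUM159.

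Medians also differed by chromosome. Genes of chromosome 8 had a median log2 difference of 0.86, with 42.8% of 605 genes at least 2-fold higher in BT549, and the OE and KD libraries gave a median of 1.02. Chromosome 9 had a median of 0.53 in EV and -0.27 in the OE and KD libraries, on opposite sides of 0, and chromosome 16 turned the other way, from -0.55 to 0.34. Chromosomes 5 (-0.18 and 0.35), 20 (-0.19 and 0.20) and 21 (-0.23 and 0.46) also had medians on opposite sides of 0, and so did chromosomes 6, 7 and 22 by less. Chromosome 15 (-0.76) and chromosome 2 (-0.70) had the lowest medians, and in the OE and KD libraries these were -0.15 and -0.18. Within chromosome 19 a run of 15 zinc finger genes and their neighbours (chr19:19710472-20809995) had a median of 5.68 in EV and -0.05 in OE and KD.

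**Figure D5:**
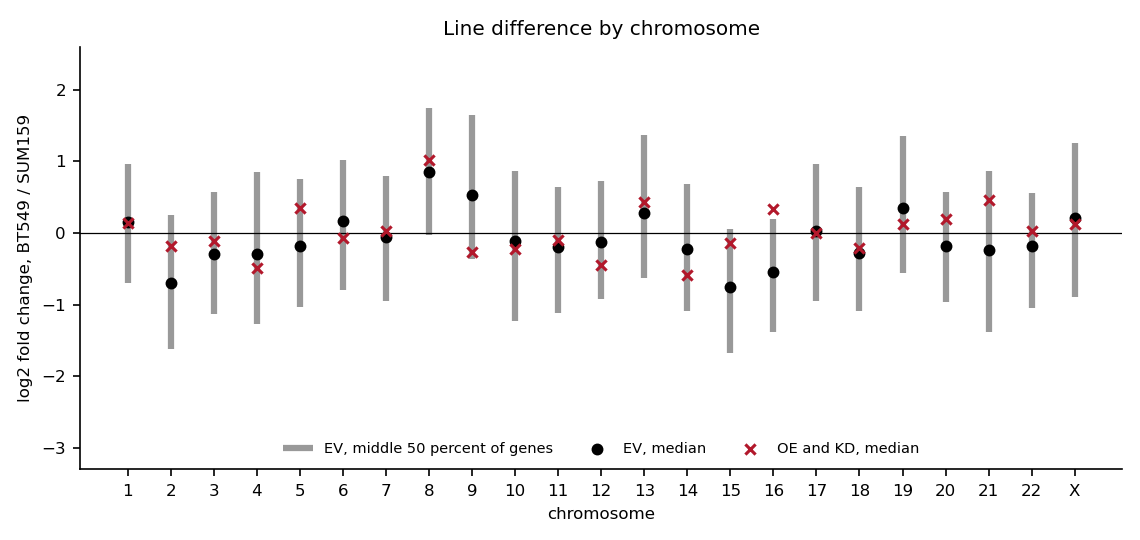
Median log2 difference BT549 minus SUM159 of the genes tested on each chromosome (y axis), in the EV libraries and in the OE and KD libraries, with the quartiles of the EV values as bars. Chromosome 8 stands above 0 in both comparisons, and chromosomes 2, 15 and 16 have the lowest EV medians.

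Across all genes, of the 7233 genes called at 2-fold in EV, 3929 (54.3%) were also called at 2-fold in the same direction between BT549 OE and SUM159 KD, which is 56.8% of the 6920 called there. Another 448 were called at 2-fold in the opposite direction, 232 of them higher in BT549 EV and 216 in SUM159 EV. On the BT549 side of both were CDKN2A, CTSB and MDK (log2 differences of 10.83, 4.64 and 6.69 in OE and KD), and on the SUM159 side TSC22D3 (-5.70), KRT18 (-9.62) and RB1 (-1.88). A test of the difference between the comparisons passed for 5380 genes (32.5%) at 2-fold, 2570 (15.5%) with the BT549 side larger in EV and 2810 (17%) with it smaller. IFITM1 was 3.00 in EV and -5.71 in OE and KD, and COL1A1 -1.88 and 2.53.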

How the data were processed

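Pooled polysome fractions of sucrose gradients gave 12 libraries, 2 for each of 6 groups named by the labels. The sources differ on library preparation: the methods of the study give rRNA depletion with a stranded kit, and the labels give oligo(dT) beads. The authors used Trimmomatic, HISAT2 (GRCh38), SAMtools for duplicate removal and Partek. The counting tool, annotation and strand setting are not given in the sources used here, so overlapping and antisense genes are uncertain. What the authors deposited are raw expected counts for single Ensembl transcripts. In 8 of these deposited columns (SUM159 and MDA-MB-231, unit recorded as other) 5.08% of the cells hold a mark for a missing value, which was read as 0. The marked transcripts hold 0.149% of the BT549 EV counts. No transcript is listed that is 0 in all BT549 libraries.

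GENCODE 44 gave a symbol to 79.6% of 201932 transcripts, which hold at least 99.26% of the counts in each EV library of BT549 and SUM159. Sums per symbol (24559, 111 of them shared by several genes) were rounded, filtered with filterByExpr over the 6 groups and normalized by TMM. All 12 libraries entered 1 edgeR quasi-likelihood model (edgeR 4.0.16, R 4.3.3) with a mean per group, which leaves 6 residual degrees of freedom, and its common dispersion was 0.000835. Standard errors of log2 differences were taken from the fitted counts, the dispersion and the quasi-dispersion, which was not taken below 1, so that none lies under the counting error. Genes were called at a Benjamini-Hochberg adjusted p-value under 0.05, and 2-fold calls also needed a log2 difference of at least 1. Tables and figures used Python 3.11.15, pandas 2.3.3, numpy 2.4.6 and matplotlib 3.10.9, and the test was tried on simulated counts. For lower bounds a line with 0 counts in both libraries was set to 3 counts per library. These bounds cover counting error only.

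The members, the 28 gene lists and the genes named were chosen with earlier results of these data known. Genes were named by rule. The first rule took the 8 protein-coding genes per direction with the largest called difference and a mean of at least 200 counts. These also needed more than 3 counts in at least 1 library of the lower line. Another took the 5 highest per direction with at most 3 counts per library in the other line. The rest took key members and the 3 largest called members of each list, and TRMT112. Added to these were the 5 highest per length in each line and runs of 15 neighbouring genes with extreme medians. Some genes are not reported here and were left out of the lists. Other list members and neighbours were named after their values were seen. As alternatives, normalization was changed to RLE or to library size only, the test to DESeq2 1.42.0 and the filter to none or to a mean of at least 50 counts. The compared libraries were fitted alone, a replicate block was added, marked transcripts were dropped, transcripts were tested as listed, and each library was left out in turn.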

Additional observations from a re-analysis of the deposited data

Results flagged for a closer look

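The line difference was not the same in the EV libraries as in the OE and KD libraries for many genes. By edgeR's test of the difference itself, 5380 genes changed by at least 2-fold between the comparisons, and 448 genes had a 2-fold line difference of opposite direction in each. The EV libraries favored BT549 more for BST2 (10.80 on the log2 scale, EV difference minus OE and KD difference), IFITM1 (8.71), IFI27 (7.41), HLA-C (7.32), HLA-B (7.24), BMP4 (6.76), TAPBPL (4.14) and TAP1 (3.89), of which 7 are interferon-induced or antigen presentation genes. They favored SUM159 more for genes of matrix and contraction: ITGA11 (-12.54), DCN (-11.95), COL3A1 (-11.09), COL6A1 (-5.96), TAGLN (-5.63), COL1A1 (-4.41) and MYL9 (-3.72). The same held for the receptor tyrosine kinase PDGFRA (-8.84) and the chemokine CCL2 (-15.24). CCL2, ITGA11 and DCN were at 0 in both BT549 EV libraries, so their fitted values depend on the model and set no size.

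The BT549 libraries carried most of these changes. BST2, an antiviral membrane tether, had 23656 and 23159 in BT549 EV and 16.6 and 21.5 in BT549 OE, while SUM159 had 9356 and 9623 in EV and 14107 and 13557 in KD. COL3A1, a fibrillar collagen, had 31.8 and 16.6 in BT549 EV and 12972 and 13078 in BT549 OE, against 315 and 288 and 87.7 and 62.3 in SUM159 EV and KD. COL6A1 had 708 and 679 in BT549 EV and 15658 and 14870.2 in BT549 OE. TRMT112 overexpression and the particular cells used for each BT549 group cannot be told apart.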

How the results depend on the processing

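With transcripts tested as listed, in place of sums per gene, 64066 features were tested and more were called: 20893 in the EV comparison (10057 higher in BT549, 10836 in SUM159; 7754 and 8299 at 2-fold), 19894 between BT549 OE and SUM159 KD (9860 and 10034; 7215 and 7616 at 2-fold) and 3957 at 2-fold above 0 in the test of their difference. Every other alternative left these counts within 1.5 times. With library size only, 5322 genes were higher in BT549 and 7787 in SUM159, and with RLE size factors 6648 and 6364. The median log2 difference of all genes was -0.06 with TMM, 0.00 with RLE and -0.27 with library size only. Without each library in turn 12355 to 12441 genes were called in the EV comparison, 12066 to 12206 between BT549 OE and SUM159 KD, and 10013 to 10177 in the test of the difference, and the lone library was assumed to vary like the other groups. With a replicate block 6217 and 6688 genes were called in the EV comparison. Replicate numbers did not pair the lines, since deviations of same-numbered EV libraries correlated at -0.0437, and the block moved no count of calls by 1.5 times.

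Of 3455 values of 268 named genes under these alternatives, 3411 kept their direction and side of the threshold, 32 lost the call, 7 gained it and 5 reversed. The 5 were CDK4 (-0.00124, library size only), VIM (-0.18, library size only), TPM1 (-0.0862, library size only), ZEB2 (1.10, transcripts as listed) and SLC3A2 (0.0602, transcripts as listed). For single genes the depth limits folds of mRNAs with few counts in 1 line.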
